A study of Homo sapiens with 6 samples.

Results

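Glycolysis and hypoxia response genes were taken as 39 named genes, and 38 of them had a row in the deposited table of 20745 genes, found by their gene symbol. CA9, a membrane carbonic anhydrase, had no row in the table used here. The cells were AB 8/13 podocytes, a single human line whose temperature-sensitive immortalizing gene lets the cells divide at 33 °C and differentiate at 37 °C, where they were kept for 7 to 10 days. There were 3 vehicle cultures, which the sample labels place in serum-free medium for 24 h and the methods in complete medium. Another 3 cultures received levamisole at 1 µM over the same 24 h. The submitters' treatment protocol places these in serum-free medium, which their treatment label does not state. The methods describe 3 passages of cells for each group. Neither group was exposed to low oxygen as far as the labels state. The table gives each gene's base mean, which is the authors' mean normalized count over all libraries of their fit. The table does not name those libraries, and they may be more than these 6 cultures, so the values may not describe these cultures alone. The remaining number columns of the table are the authors' own comparison of the groups and were not used. The values below therefore describe how abundant these transcripts were, with no error and no replicate number, and no difference between levamisole and vehicle was tested. The depth of each library is unknown.

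In glycolysis, glucose is taken up, phosphorylated and split into triose phosphates, which are oxidized to pyruvate, and pyruvate can be reduced to lactate and exported. Podocytes, the epithelial cells that cover the glomerular capillaries, are known to draw on glycolysis in their foot processes. When oxygen is ample, prolyl hydroxylases of the EGLN family mark the transcription factor subunit HIF-1α for destruction by the von Hippel-Lindau protein. When oxygen is scarce, HIF-1α accumulates, pairs with ARNT and binds hypoxia response elements near genes for glucose uptake, glycolysis, pH control, mitophagy and collagen modification.

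The hypoxia response element has the core ACGTG or GCGTG, so the promoters of these genes were searched for both words on both strands. RefSeq promoters of 300 bases, from 250 before to 50 after the start site on GRCh38.p14, were matched to 34 of the 38 genes. The core was present in 27 of 34 promoters (79.4%), against 61.6% of 12205 promoters of genes in the table. ACGTG was present in 16 promoters (47.1%, against 25.6% of all), and GCGTG in 18 (52.9%, against 49.7% of all). With only genes at a base mean of at least 5, the core was in 25 of 32 members' promoters (78.1%), against 64.4% of 9859. On that footing ACGTG was in 43.8% of the members' promoters, against 26.7%, and GCGTG in 53.1%, against 52.5%. The median GC content was 70.2% for the members' promoters and 65.7% for all, and its part in these shares was not tested. The palindrome CACGTG, an E-box that holds ACGTG on both strands and so counts as 2 matches, was present in 6 of the 34 promoters (17.6%, against 9.59% of all). BNIP3 and LDHA had 6 matches each and ALDOC had 5, the highest numbers among the members, and their promoters are shown for that reason, with every match in capitals.
BNIP3, chr10:131981874-131982173, minus strand: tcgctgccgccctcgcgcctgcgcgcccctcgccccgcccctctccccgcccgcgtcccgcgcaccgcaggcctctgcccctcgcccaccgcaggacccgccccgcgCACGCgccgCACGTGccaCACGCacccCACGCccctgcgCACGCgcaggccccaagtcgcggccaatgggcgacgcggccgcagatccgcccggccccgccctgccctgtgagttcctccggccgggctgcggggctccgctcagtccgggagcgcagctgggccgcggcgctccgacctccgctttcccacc
LDHA, chr11:18394313-18394612, plus strand: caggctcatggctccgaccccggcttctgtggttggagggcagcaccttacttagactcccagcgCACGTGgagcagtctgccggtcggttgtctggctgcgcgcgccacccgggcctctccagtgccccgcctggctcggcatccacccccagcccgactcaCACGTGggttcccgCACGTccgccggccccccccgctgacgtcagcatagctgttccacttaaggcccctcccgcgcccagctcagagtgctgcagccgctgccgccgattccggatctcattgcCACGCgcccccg
ALDOC, chr17:28576846-28577145, minus strand: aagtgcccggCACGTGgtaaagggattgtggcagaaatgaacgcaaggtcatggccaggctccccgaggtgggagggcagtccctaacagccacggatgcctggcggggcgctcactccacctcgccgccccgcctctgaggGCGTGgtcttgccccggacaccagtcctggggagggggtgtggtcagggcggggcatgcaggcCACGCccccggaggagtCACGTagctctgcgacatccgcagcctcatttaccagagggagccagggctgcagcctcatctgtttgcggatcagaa

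In the BNIP3 promoter all 6 matches began between positions -143 and -104 relative to the start site. In the LDHA promoter 5 matches lay before the start and 1 after it, and 4 of the 6 came from a pair of E-boxes. The promoter of ANKRD37 held 3 ACGTG matches and no GCGTG. No match was found in the 300-base windows of EGLN3, MXI1, P4HA2, PFKM, PFKP, PGAM1 and TPI1, which says only that these letters are not in these windows. The windows of P4HA2, PFKM, PFKP and PGAM1 lay 762, 3283, 422 and 1627 bases from the canonical start, so 4 of these 7 do not cover it. Among the windows with a match, that of GAPDH lay 747 bases from the canonical start and does not cover it either. Those of HK1 and GPI were displaced from it by 217 and 204 bases. Of the 58 matches, 50 lay before the start site, as do 250 of the 300 bases of each window. A match is a sequence description and not a measured site, and the base means of the 3 genes with the most matches ranged from 4.33 for ALDOC to 3626 for LDHA.

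**Figure D1:**
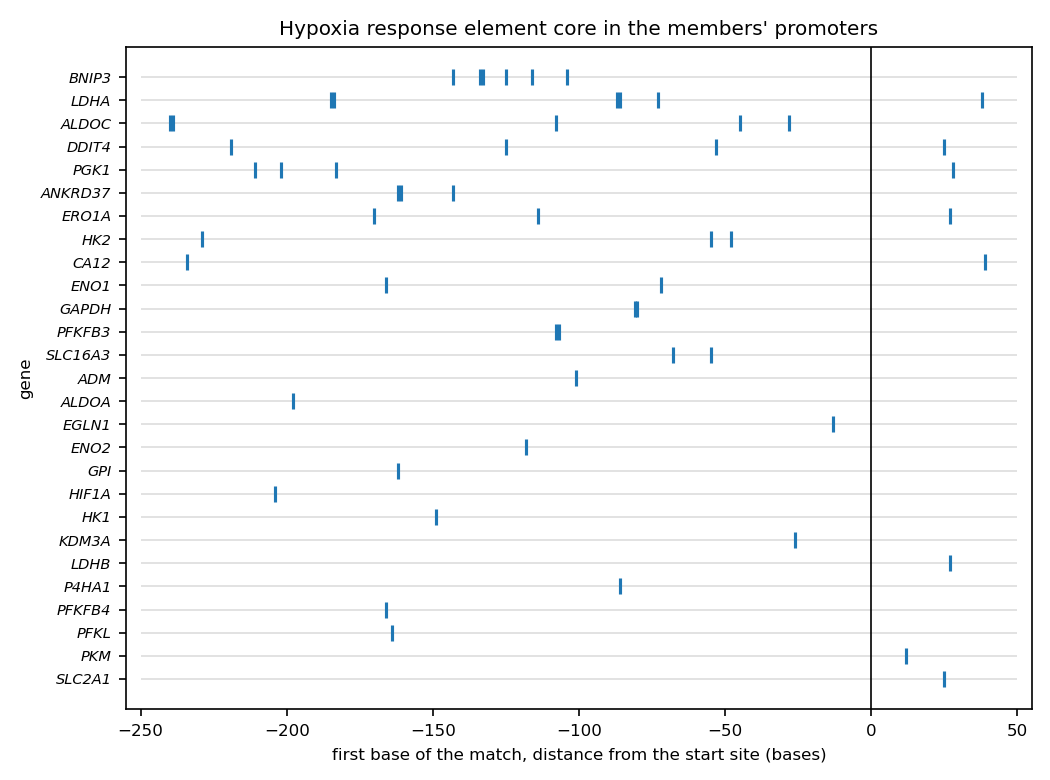
Position of each match to the hypoxia response element core (blue ticks) in the 27 members' promoters that hold one; the x axis is the distance of the match's first base from the start site in bases, and each row is a gene. Matches before the start site, where 250 of the 300 bases lie, number 50 of 58, and BNIP3 and LDHA have 6 each.

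A base mean of at least 5 was reached by 36 of the 38 genes (94.7%), against 64.3% of all genes in the table. The exceptions were the aldolases ALDOC at 4.33 and ALDOA at 3.04. A base mean of at least 100 was reached by 25 of the 38 genes (29.4% of all genes), and one of at least 1000 by 6 (3.67% of all genes). Divided by exonic length, the median over the 36 genes was 46.8 per kb, compared with 15.9 per kb over the 13336 genes of the table that passed the same minimum. By that measure 26 of the 38 genes lay above the median of those 13336 genes. Together the 38 genes held 0.702% of the summed base means, being 0.183% of the genes. GAPDH and PKM alone made up 58.6% of the members' sum, and with ENO1 and LDHA the share was 76.3%.

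**Figure D2:**
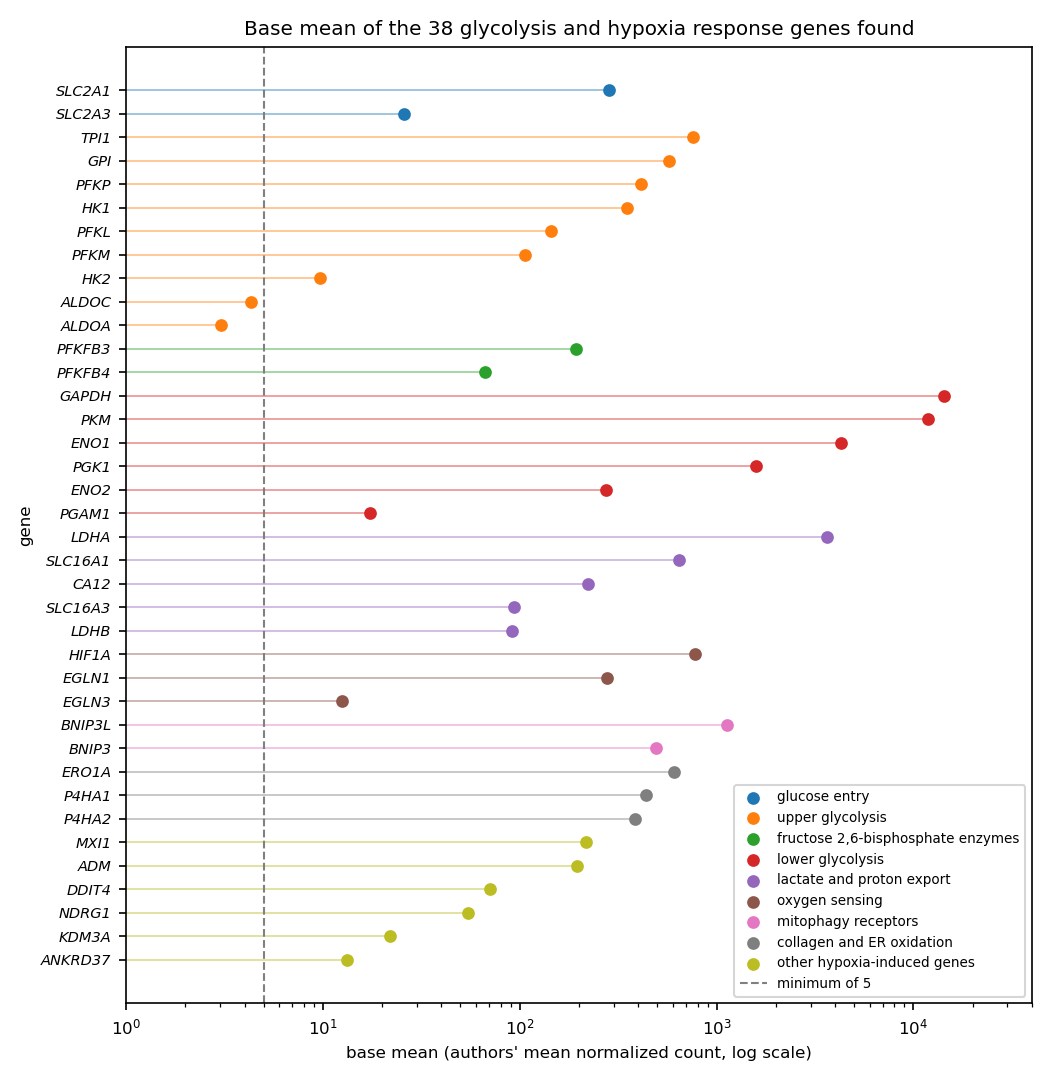
Base mean (authors' mean normalized count, log x axis) of the 38 genes found, one point a gene, coloured and ordered by role; the dashed line marks the minimum of 5. The points run from 3.04 for ALDOA to 14307 for GAPDH, and the highest 4 are GAPDH, PKM, ENO1 and LDHA.

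Glucose enters through facilitative transporters. SLC2A1, which encodes GLUT1, had a base mean of 283, and SLC2A3, which encodes GLUT3, had one of 25.9. SLC2A1 was 10.9 times as high as SLC2A3 undivided by length and 14.3 times per kb of the longest transcript.

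Hexokinases trap glucose as glucose 6-phosphate. HK1 (chromosome 10 of GRCh38, 69269984 to 69401884) had a base mean of 349.7, and HK2, the isozyme usually counted among hypoxia-induced genes, had one of 9.65. Per kb of exonic length HK1 was 31.2 times as high as HK2, against 36.2 times undivided by length and 51 times per kb of the longest transcript. GPI, which turns glucose 6-phosphate into fructose 6-phosphate, had a base mean of 569.9. The 3 phosphofructokinase genes, which catalyse the committed step, had base means of 412 for PFKP, 144 for PFKL and 106 for PFKM. Per kb of exonic length PFKP made up 63.3% of the 3 levels, PFKL 19.2% and PFKM 17.5%. PFKFB3 and PFKFB4, which set the concentration of the phosphofructokinase activator fructose 2,6-bisphosphate, had base means of 192 and 66.6, a ratio of 2.88 per kb. TPI1, which interconverts the triose phosphates, had a base mean of 757.

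The genes of lower glycolysis held 72.4% of the members' summed base means. GAPDH (chromosome 12, 6534512 to 6538374), which oxidizes glyceraldehyde 3-phosphate, had a base mean of 14307, at place 35 of the table. PKM (chromosome 15, 72199029 to 72231819), the pyruvate kinase of most tissues, had 11787 and stood at place 41. ENO1 (chromosome 1, 8861000 to 8879190), the widely expressed enolase, had 4260.3, and PGK1, the first of the ATP-forming enzymes, had 1586. ENO2, the enolase first known from neurons, had 274, and per kb of exonic length ENO1 was 12.7 times as high. Gene-wise counts do not separate the splice forms of PKM.

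ALDOA and PGAM1 stood far below their neighbours in the pathway. ALDOA (chromosome 16, 30064164 to 30070457) encodes the main aldolase of most tissues, and its level per kb of exonic length was lower than that of TPI1 by a factor of 353. PGAM1 (chromosome 10, 97426191 to 97433444), the phosphoglycerate mutase between PGK1 and ENO1, had a base mean of 17.4. Its level per kb was lower than that of PGK1 by a factor of 42.5 and lower than that of ENO1 by a factor of 119. Undivided by length these factors were 90.9 and 244.

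This protocol samples the 3′ ends of transcripts, so the last 500 exonic bases of each gene's canonical transcript were examined in GENCODE 44. How far from the poly(A) tail the aligned reads lay is not given in the sources used here. For ALDOA all 500 bases (100%) lay inside exons of a gene of the same orientation, ENSG00000285043, annotated as protein-coding from 30053123 to 30070414 on chromosome 16. That gene had no row in the table used here. Of the 14455 protein-coding genes with a position, 128 (0.886%) had an end wholly covered in this way. The median base mean of those 128 genes was 3.10, compared with 69.1 for the 13958 protein-coding genes with no covered base. Among the members, LDHB had 47.6% of its end covered, by ENSG00000285854, and PFKP had 24.0%, by ENSG00000278419, while the ends of the remaining 35 were not covered. The authors ran HTSeq-count with its defaults, under which a read that fits more than 1 gene is left uncounted, and whether reads of ALDOA were lost was not tested.

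Copies elsewhere in the genome were counted in the same ends, as windows of 60 bases, the length of the sequenced read, that recur exactly on another place of GRCh38. For PGAM1, 385 of 441 windows (87.3%) had such a copy, spread over 5 loci. It was the highest share among the 38 genes, and 25 genes had no copied window. The next highest were GPI at 24.0%, BNIP3 at 23.6% and PGK1 at 23.4%, followed by TPI1 at 15.4%, HK2 at 15% and GAPDH at 12.7%. The base means of ALDOA and PGAM1 are therefore uncertain as measures of their transcripts, and the part of the overlap and of the copies in their low values was not tested. ALDOC, the second lowest gene, had neither a covered base nor a copied window.

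**Figure D3:**
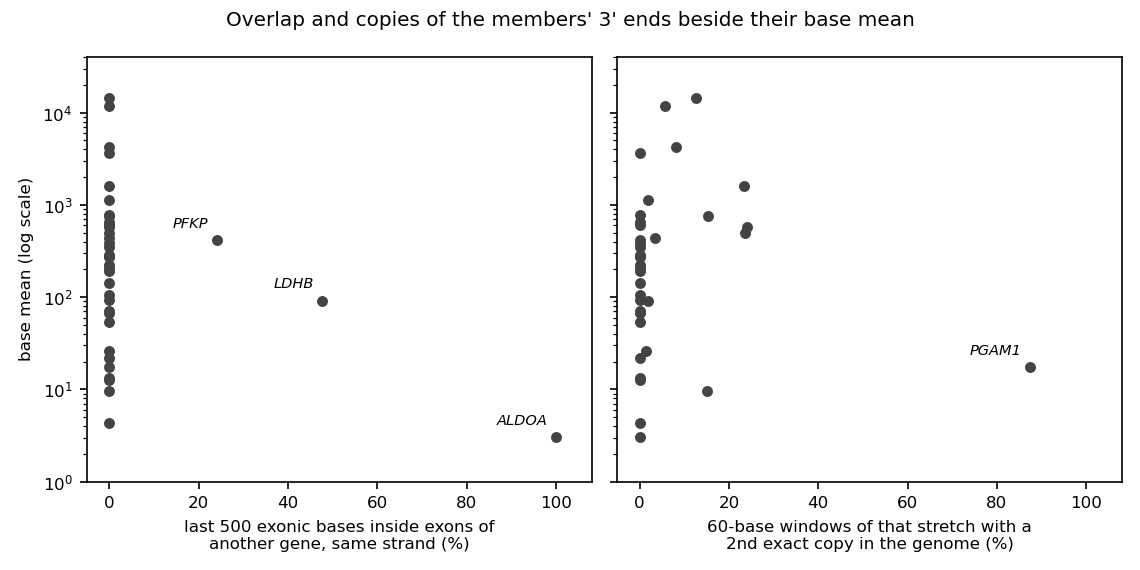
Base mean (log y axis) of the 38 genes against the share of their last 500 exonic bases that lie in exons of a same-strand neighbour (left, %) and the share of 60-base windows there with another exact copy in the genome (right, %); each point is a gene. ALDOA, at 100% covered, and PGAM1, at 87.3% copied, stand apart from the rest at base means of 3.04 and 17.4.

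Pyruvate is reduced to lactate by lactate dehydrogenase. LDHA (chromosome 11, 18394560 to 18408425), the subunit favouring lactate formation, had a base mean of 3626. LDHB, the subunit favouring lactate oxidation, had 90.9, with part of its end covered as given above. LDHA was 19.7 times as high as LDHB per kb of exonic length, 39.9 times undivided by length and 27.4 times per kb of the longest transcript. Of the proton-linked lactate transporters, SLC16A1 (MCT1) had a base mean of 645 and SLC16A3 (MCT4), the form known as hypoxia-induced, had 93.7, and per kb SLC16A1 was 10.0 times as high. CA12, a membrane carbonic anhydrase, had a base mean of 223.

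HIF1A (chromosome 14, 61695513 to 61748259), which encodes HIF-1α, had a base mean of 781. EGLN1, the main prolyl hydroxylase that marks it, had 278, and EGLN3, a hydroxylase that is itself induced by hypoxia, had 12.5. EGLN1 was 30.4 times as high as EGLN3 per kb of exonic length, 22.2 times undivided by length and 14.6 times per kb of the longest transcript. The mRNA level of HIF1A does not give the amount of its protein, which is set mostly by degradation.

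BNIP3L and BNIP3, mitochondrial receptors that recruit the autophagy machinery, had base means of 1126 and 492, a ratio of 2.23 per kb. Collagen prolyl 4-hydroxylase is made with 1 of several catalytic subunits, and P4HA1 had a base mean of 438 and P4HA2 one of 387. Per kb of exonic length P4HA1 was 3.70 times as high, but undivided by length the ratio was 1.13. ERO1A, the endoplasmic reticulum oxidase that regenerates protein disulfide isomerase, had a base mean of 607.

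The remaining hypoxia-induced genes had a median base mean of 62.3, the lowest median of the roles when undivided by length. Per kb of exonic length their median was 19.5, above the 16.1 of upper glycolysis. MXI1, which antagonizes MYC, had 217, and ADM, which encodes the vasodilator peptide adrenomedullin, had 195. DDIT4, an inhibitor of mTORC1 signalling, had 70.2, and NDRG1, a stress-response gene, had 54.4. KDM3A, a histone H3 lysine demethylase, had 21.9, and ANKRD37, a small ankyrin repeat protein gene, had 13.3. Per kb of exonic length their levels ran from 1.65 for KDM3A to 83.7 for ADM.

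**Figure D4:**
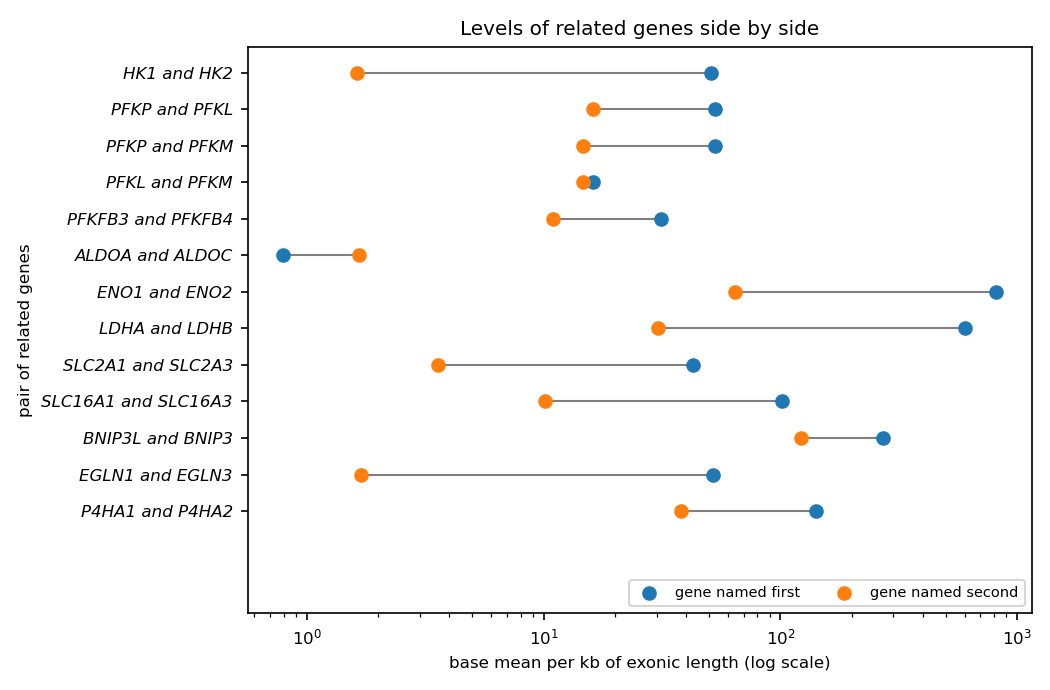
Level of 13 pairs of related genes, as base mean per kb of exonic length (log x axis); blue points are the gene named first and orange points the gene named second. On this scale the gap is 31.2 times for HK1 and HK2 and 30.4 times for EGLN1 and EGLN3, and ALDOC lies above ALDOA although both are under a base mean of 5.

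Since 3′ reads need not grow in number with transcript length, the 13 pairs were also compared undivided by length and per kb of the longest transcript. In 12 of the 13 pairs the same gene was higher on all 3 scales, but the size of the gaps and their ranking depended on the scale: undivided by length the widest was that of LDHA and LDHB. The exception was PFKL and PFKM, where PFKL was 1.10 times as high per kb of exonic length and PFKM 1.24 times as high per kb of the longest transcript.

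Of 43 further genes of glycolysis and pyruvate handling, 36 had a row and 27 a base mean of at least 5. The highest base means were those of G6PC3, a glucose 6-phosphatase (1474), BSG, the partner of the lactate transporters (495), DLAT (473) and PDHB (299.8) of the pyruvate dehydrogenase complex, and ADPGK, an ADP-dependent glucokinase (269). Among further isozymes of the members, HKDC1 had a base mean of 59.6, PFKFB2 17.6, ENO3 8.25, PFKFB1 3.63 and HK3 0.290. PGAM2, PGAM4, PGK2, PKLR and LDHC had no row in the table used here. Of the kinases that switch off pyruvate dehydrogenase, PDK2 had a base mean of 155, PDK1, the form known as hypoxia-induced, 95, PDK3 42.9 and PDK4 2.89.

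Of 20 further genes of the HIF pathway, 19 had a row and 16 a base mean of at least 5. EPAS1, which encodes HIF-2α, had a base mean of 4424, and its level was higher than that of HIF1A by a factor of 5.66 undivided by length and of 4.35 per kb of the longest transcript. HIF3A had a base mean of 0.369. The partner subunit ARNT had 64.2 and ARNT2 had 34.8. VHL had a base mean of 968, and RBX1, ELOC, ELOB and CUL2 of its ubiquitin ligase had 1047, 551, 353 and 133. EP300, a coactivator of HIF, had 587. CITED2, which competes with HIF-1α for its coactivators, had 867, and HIF1AN, the asparaginyl hydroxylase that blunts HIF-1α, had 68.3. EGLN2 had a base mean of 1.10, and 96.8% of its last 500 exonic bases lay in exons of a neighbouring gene of the same orientation.

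Of 34 further genes known as hypoxia-induced, 32 had a row and 28 a base mean of at least 5. Among the highest were LOXL2 (3791) and LOX (962), which crosslink collagen, VEGFA (1407), the podocyte's growth factor for endothelium, and PLOD2 (821), a collagen lysyl hydroxylase. HILPDA, a lipid droplet protein gene, had 27.4, MIR210HG, the host RNA of a hypoxia-induced microRNA, had 5.93, and EPO had no row. The median base mean of the 28 genes was 138, and it was 276 for the 36 members that passed the same minimum.

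The podocyte label was checked with 19 marker genes, of which 15 had a row and 13 a base mean of at least 5. The slit diaphragm gene NPHS1 had no row in the table used here, WT1 had a base mean of 6.21, SYNPO 22.8 and PODXL 15.3. CDKN1C, a cell cycle inhibitor of mature podocytes, had 1019, the transcription factor gene FOXC2 had 1013 and CD2AP had 929, and VIM and ACTN4, which many cell types share, had 19062 and 14320.5. Of the markers of other cell types, no endothelial, mesangial, leukocyte or red blood cell gene reached 5, and the highest among them was PDGFRB at 4.14. AQP1, listed as a tubule marker, had 243, while the tubule genes LRP2 and UMOD had no row and CUBN was under the minimum of 5.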

How the data were processed

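RNA from 3 vehicle and 3 levamisole cultures was sequenced from its 3′ ends by an adapted form of CEL-seq. According to the methods and the submitters' processing notes, the authors trimmed reads with Trim Galore 0.4.5, mapped them to GRCh38 with STAR 2.7.5a, counted them with HTSeq-count 0.11.0 on Ensembl 95 and fitted DESeq2 1.22.0 in R 3.5.3. HTSeq-count ran with default parameters. The methods describe a separate route with BWA MEM and RPM scaling for the sequencing facility's count tables. They also give a cutoff of at least 5 reads per sample and gene, while the table holds 3744 genes with a base mean under 1. The base mean is a signal that the authors deposited: the mean over the libraries of their fit of counts divided by size factors. The deposited table also has 5 columns of the authors' own comparison (log2 fold change, its standard error, Wald statistic, p-value and adjusted p-value), which were not used. No test was run, since the table has no values per culture, and the depth per library is unknown.

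Levels per kb used exonic lengths of GENCODE 44 on GRCh38, which matched 20599 of 20745 gene identifiers. A minimum base mean of 5 was set. Genes with identifiers above the table's highest were not counted as covering, and whether each was in the authors' annotation was not checked. Promoters are RefSeq's, 1 a gene, nearest to the canonical start, within 100 bases of it for 27 of 34 members. The members, lists, pairs and motif were chosen with earlier results of these data known. All members are named, with the 5 highest genes and the isozymes of each further list, and others singled out after their values were seen, except a few list genes that are not reported here. The motif, copy and end searches were tested on simulated data. Protein sequences were not used. Python 3.11.15, NumPy 2.4.6, pandas 2.3.3 and matplotlib 3.10.9 were used.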

Additional observations from a re-analysis of the deposited data

How the results depend on the processing

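No paired analysis was possible because the table holds no values per culture, and for the same reason no replicate was left out and no other normalization was tried. With the minimum set to 1, 10, 50 or 100, the members passing it numbered 38, 35, 30 or 25. The members' share of the summed base means was 1.08% without the 22 mitochondrially encoded genes, which held 34.8% of the sum, and 0.476% without GAPDH. The members' median level was 276 undivided by length and 84.4 per kb of the longest transcript, where the medians over all genes past the minimum were 82.6 and 21.7. The number of members above the median of all genes was between 25 and 31 under the 5 alternatives. The order of PFKL and PFKM turned around per kb of the longest transcript (ratio 0.805), and no other pair did on the scales used. With ACGTG alone 16 of 34 promoters held the core, and 25 did without matches inside CACGTG.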

Other observations

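The members were unevenly spread over the chromosomes. Chromosome 10 holds 8 of the 38 genes (21.1%, against 3.91% of the genes in the table): BNIP3, DDIT4, HK1, MXI1, P4HA1, PFKFB3, PFKP and PGAM1. Chromosome 12 holds 6 (15.8%, against 5.60%), among them GAPDH, TPI1 and ENO2 within 389 kb. No test was made, as the genes were chosen for their function.

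The libraries behind the base mean could not be named from the table. All 3744 base means under 1 were different from each other when rounded to 9 decimals, and so were all 20745 values. Up to 6 whole reads can be placed in 6 libraries in 924 ways, the empty one included. That number counts placements and not base means: with equal size factors, placements of the same total give the same base mean. How many different values unequal size factors would allow was not computed, so the 3744 values do not give the number of libraries. The libraries of the authors' fit are not named in the sources used here.

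Over all genes of the table with a position, 791 (3.84%) had some of their last 500 exonic bases within exons of a same-strand neighbour, and 211 (1.02%) had all of them covered. Among the further HIF pathway genes EGLN2 was the only listed gene with a covered end, and CD68, at a base mean of 1.06 with 82.6% covered, was the only such marker gene.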
